A study of Mus musculus with 24 samples.

Results

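The response to lipopolysaccharide (LPS) of wild-type (wt) bone marrow-derived macrophages (BMDMs) was read from 6 of the 24 arrays of the series. They are the 3 wt arrays at 0 h and the 3 wt arrays at 4 h of the IKKβ experiment, chosen by their titles. At 0 h and 4 h of LPS, the series compared wt with IKKβ-deficient BMDMs and, in a second experiment, BMDMs given SB202190 with BMDMs given DMSO. The study took the BMDMs for p38 inhibition from C57BL/6 mice and named no floxed allele for them. The wt mice carried *Ikkβ* F/F, that is, *Ikkβ* flanked by loxP sites, on a C57BL/6 background and no Cre, so the wt cells share the floxed alleles with the IKKβ-deficient cells, in which Mx1-Cre had deleted the gene. Bone marrow of 8 to 10 week-old mice was grown for 7 days in medium with 20% L929-conditioned medium, and the 4 h cells then received 100 ng/ml LPS. The labels call the cells RAW264.7, a mouse macrophage line, in one field and BMDMs in another, and the study describes BMDMs. *Pycard*, the inflammasome adaptor that RAW264.7 cells are known to lack, was detected on all 6 arrays, at a normalized signal of 268, 273 and 346 at 0 h and 241, 249.6 and 357 at 4 h for replicates 1, 2 and 3. Of 15 listed macrophage markers 11 were measured, among them *Adgre1*, *Itgam* and *Lyz2*, and their summed signal was 103702 to 126380.4 at 0 h and 97236 to 115368 at 4 h. No T or NK cell marker on the list was detected often enough to be tested, 1 of 10 B cell markers was (summed signal 92.7 to 124 at 0 h and 88.8 to 93.7 at 4 h) and 6 of 11 neutrophil markers were (922 to 3862 and 2487 to 4076). Of the stromal and endothelial markers 8 of 11 were tested (917 to 1255 and 1098 to 1275). None of the tested markers of these other cell types changed at an adjusted p under 0.05 by limma. Whether the 3 replicates are different mice or cultures is not stated, and the p-values below thus cover the spread of these samples alone, which can be technical.

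LPS is a lipid of the outer membrane of Gram-negative bacteria that macrophages sense through TLR4 with CD14 and MD-2. TLR4 signals through MyD88 and TRIF. The first leads to the IKK complex, which marks IκB for degradation and so frees NF-κB, and to MAP kinases and AP-1. The second leads to IRF3 and type I interferon. Early targets include cytokines, chemokines and the inhibitors that end the response, and macrophages that sense LPS are known to leave the cell cycle and to shift their lipid and energy metabolism.

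Each array measured 25697 probes by brightness, and 11010 to 11300 of them were detected at 0 h and 10181 to 11107 at 4 h. Probes detected on 3 or more of the 12 arrays of the experiment were kept, the brightest of them stood for its gene, and 8569 genes were tested. The 4 arrays of a replicate number, 2 of them wt, shared a BeadChip by the labels, and the deviations of the wt arrays of one BeadChip from their group means correlated at 0.47 to 0.74. The BeadChip was therefore a block in the limma fit, which took its spread from all 12 arrays. Deviations of the wt and the IKKβ-deficient array of one time and BeadChip correlated more strongly, at 0.92, 0.75 and 0.93 at 0 h. At 4 h they correlated at 0.74, 0.58 and 0.85 for replicates 1, 2 and 3. Beyond the block the fit treats these arrays as independent, so its p-values for LPS may be too small. After 4 h of LPS 549 genes (6.41% of those tested) differed from 0 h at an adjusted p under 0.05 (Benjamini-Hochberg). Of these, 233 rose (2.72%) and 316 fell (3.69%). All 233 were higher and all 316 lower on each of the 3 BeadChips, and of all 8569 genes 1666 (19.4%) were higher and 2241 (26.2%) lower on each. The fit chose the 549 by these same changes, so that agreement is no separate evidence. The number rests on that design. It was 4 (0.0467%) without the block and 0 in a fit of the 6 wt arrays alone with the block (1544 genes at an unadjusted p under 0.05), in which all 549 had an unadjusted p under 0.05. Those p-values use the same wt arrays that chose the 549. Without the BeadChip of replicate 1, 2 or 3 it was 541 (317 of them among the 549), 0 and 38 (28 among the 549). When arrays were scaled to their medians and not quantile-normalized, the median log2 change over all genes went from -0.03 to -0.17 and the split from 233 up and 316 down to 168 up (1.96%) and 1259 down (14.7%), with the 549 genes all keeping their direction. In bulk samples like these, fewer cells of a type and less RNA per cell cannot be told apart.

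**Figure D1:**
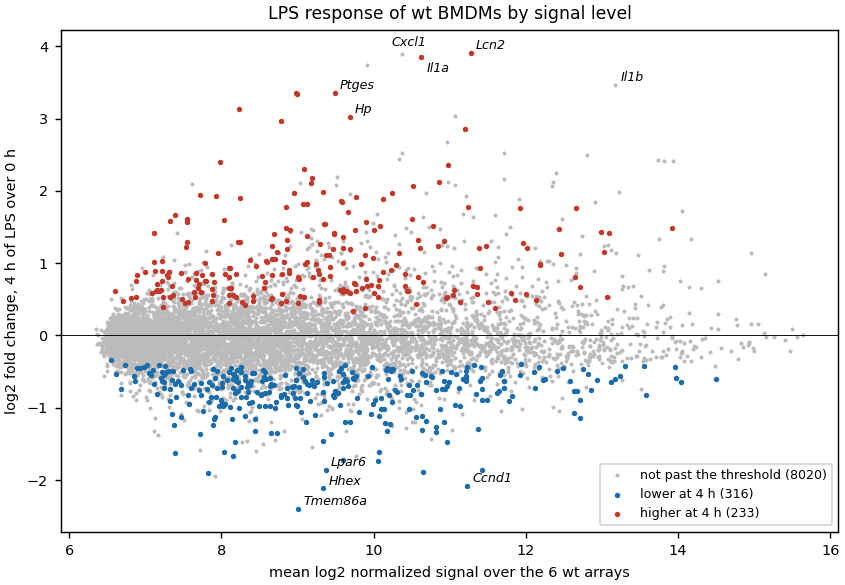
Each point is 1 of the 8569 genes, with its mean log2 normalized signal over the 6 wt arrays on the x axis and its log2 fold change, 4 h of LPS over 0 h, on the y axis. The 233 genes that rose (red) reach log2 fold changes of 3.91 and the 316 that fell (blue) of -2.40, and some of the largest changes, such as those of *Il1b* and *Cxcl1*, are among the genes that did not pass (grey).

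The changes that passed were mostly moderate, and the rises went further than the falls. The risen genes had a median log2 fold change of 0.87 (range 0.34 to 3.91), and 96 of 233 exceeded 1 and 16 exceeded 2. The fallen genes had a median of -0.70 (range -2.40 to -0.33), and 58 of 316 lay below -1 and 3 below -2. In 145 of the risen genes the 3 arrays at 4 h all lay above the 3 at 0 h, and in 131 of the fallen genes all below. Over all tested genes such groups without overlap numbered 493 higher (5.75%) and 521 lower (6.08%).

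The 3 BeadChips did not start from the same state. On the 0 h array of replicate 1 many cytokine and chemokine genes were near background, while on the 0 h arrays of replicates 2 and 3 many were already high. The cytokine gene *Il1b* read 131, 10304 and 15929 at 0 h in replicates 1, 2 and 3 and 40861, 27639.5 and 25732 at 4 h. All 3 arrays at 4 h lay above all 3 at 0 h, but replicate 1 started at the bottom of the scale and replicates 2 and 3 near their end point. The interferon-inducible chemokine gene *Cxcl10*, named here after its values were seen, read 206, 40861 and 36851 at 0 h and 37594, 38212 and 32191 at 4 h. In replicates 2 and 3 it thus read no higher after LPS than before. Signals this bright lie toward the top of the quantile-normalized scale, where a further rise may not show. The median log2 signal at 0 h was 6.72, 9.98 and 9.40 in replicates 1, 2 and 3 for 18 cytokine genes and 6.82, 12.66 and 12.78 for 17 chemokine genes. The lowest of the 3 arrays at 0 h was that of replicate 1 for 16 of the 18 cytokine genes (88.9%), 15 of 17 chemokine genes (88.2%) and 26 of 26 interferon-stimulated genes, against 32.2% of all tested genes. The IKKβ-deficient arrays of the same BeadChips differed alike at 0 h, with a median for the chemokine genes of 7.11, 12.00 and 12.80. Cell cycle genes were low at 0 h on another array, that of replicate 3. It was the lowest of the 3 for 20 of 21 mitosis genes and 30 of 35 DNA replication genes, against 3394 of all 8569 genes. Across all genes the SD of the log2 change was 0.79 on the BeadChip of replicate 1, 0.47 on that of replicate 2 and 0.34 on that of replicate 3. What made the 0 h arrays differ was not tested.

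**Figure D2:**
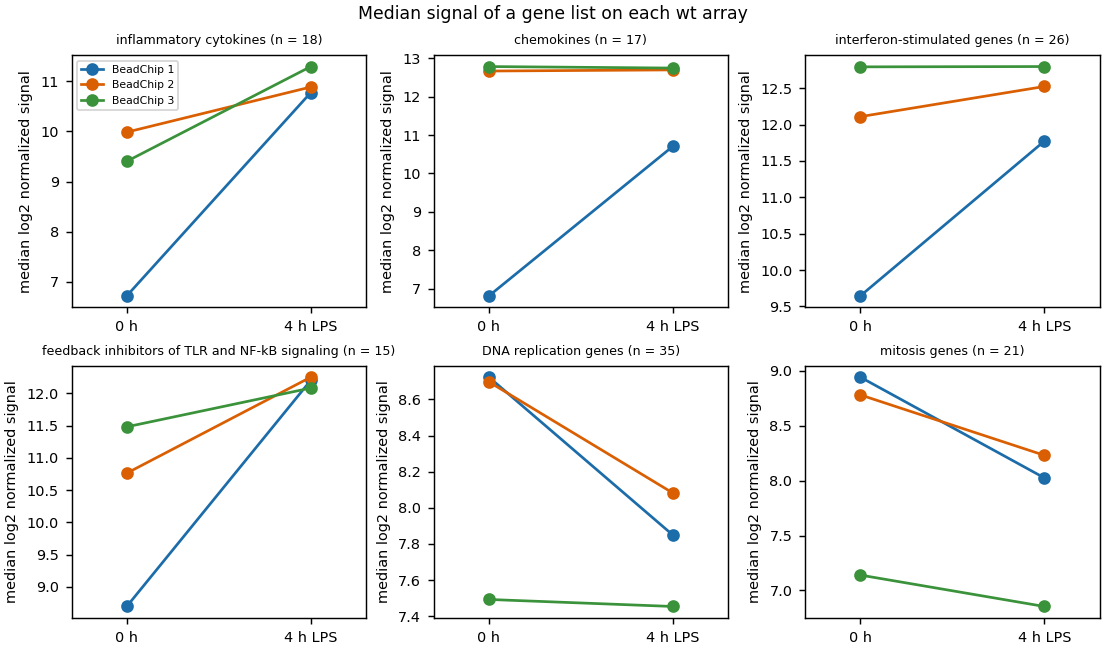
The y axis gives the median log2 normalized signal of a gene list on 1 array, the x axis the time of LPS, and a line joins the wt arrays of 1 BeadChip. At 0 h the replicate 1 array (blue) lies far below the others for cytokines, chemokines and interferon-stimulated genes (6.82 against 12.66 and 12.78 for chemokines), and the replicate 3 array (green) lies lowest for DNA replication and mitosis genes.

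Genes of secreted host defense proteins were among the largest rises. *Lcn2*, whose protein withholds iron from bacteria, read 239, 690.4 and 1585 at 0 h in replicates 1, 2 and 3 and 3589, 19614 and 12494 at 4 h. The 2 groups did not overlap, and the fit gave a log2 fold change of 3.91 (SE 0.480, adjusted p = 0.00649), where SE is the standard error. *Ptx3*, a long pentraxin that binds microbes, lay at 81.2, 108 and 119 at 0 h and at 1127, 649 and 964 at 4 h. It was thus near background on every 0 h array and high on every 4 h array, with a log2 fold change of 3.14 (SE 0.369, adjusted p = 0.00586) by limma. *Hp*, which encodes the hemoglobin-binding acute-phase protein haptoglobin, went from 661, 219 and 166 to 1468, 5853 and 1496. Its replicate 1 had the highest 0 h level and the smallest rise, and the fold change was 3.02 (adjusted p = 0.0347) on the log2 scale. *Saa3*, an acute-phase apolipoprotein, was abundant from the start, at 13151, 6775 and 8967, and reached 26479, 23929.5 and 27639.5, a log2 fold change of 1.48 (adjusted p = 0.0159). *Cfb*, complement factor B, stood at 1.40 (adjusted p = 0.0257), with overlapping groups. Of the 13 measured acute-phase and antimicrobial genes these 5 rose (38.5%, against 2.72% of all genes) and none fell, and without replicate 1, 2 or 3 the number that rose was 5, 0 and 1. The list's median log2 fold change was 0.69 against -0.03 over all tested genes.

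Among the cytokine genes 7 of 18 rose (38.9%, against 2.72% of all genes) and none fell, with a median log2 fold change of 1.94. *Il1a*, the gene of the alarmin IL-1α, was at 87.0, 1120.0 and 733 at 0 h and 6591, 6326 and 5117 at 4 h. Every 4 h array lay above every 0 h array, replicate 1 rose most, and the fit gave 3.85 (adjusted p = 0.0145) on the log2 scale. *Il19*, of the IL-10 family, was at 87.7, 121 and 371 and 437, 2159.6 and 4436. In contrast to *Il1a* its rise was largest on the BeadChips of replicates 2 and 3, and it had a log2 fold change of 3.35 (adjusted p = 0.00701). *Inhba*, the activin A subunit, was at 99.9, 156 and 251 and 1446, 1156 and 1133, and thus similar across the 4 h arrays. It stood at 2.97 (adjusted p = 0.00701). *Tnfsf9*, the ligand of the T cell costimulator 4-1BB, was at 112, 160.0 and 216 and 544, 518 and 710.2. Its log2 change was 2.28, 1.69 and 1.72 on the 3 BeadChips, with a log2 fold change of 1.90 (SE 0.165, adjusted p = 0.00252). The other risen members were *Il12a* at 1.59, which encodes the p35 subunit of IL-12, *Ebi3* at 1.28, which encodes a subunit of IL-27 and IL-35, and *Tnfsf15* at 0.62, named here because they complete the 7. The count fell to 0 without replicate 2 and to 3 without replicate 3, and it was 9 without replicate 1. Under median scaling, where 1.96% of all genes rose, it was also 9, but *Tnfsf15* did not pass there (adjusted p = 0.0515 by limma).

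The genes of the best known LPS cytokines did not pass, although most had large fold changes. *Il1b* stood at a log2 fold change of 3.47 (SE 1.43, adjusted p = 0.169 from limma). *Il6* was at 90.1, 859 and 575 at 0 h and 1679, 1652 and 1221 at 4 h. Its groups did not overlap, and it stood at 2.08 (adjusted p = 0.0595), with an adjusted p = 0.0437 without replicate 1. *Tnf*, named after its values were seen, was at 415, 8719 and 4374 and 17349, 12308 and 6124 and stood at 2.12 (adjusted p = 0.187). Its 4 h level in replicate 3 lay below its 0 h level in replicate 2. The anti-inflammatory *Il10* stood at 1.97 (adjusted p = 0.0549) and the IL-1 receptor antagonist gene *Il1rn* at 2.07 (adjusted p = 0.0660), both also named afterwards. Under median scaling *Il10* and *Il1rn* passed (adjusted p = 0.0425 and 0.0497 by limma) and *Tnf* did not (adjusted p = 0.160). Of the 18 cytokine genes 15 were higher on all 3 BeadChips, against 19.4% of all genes, and none was lower on all 3.

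None of the 17 chemokine genes passed, where 6.41% of all genes did, and their median log2 fold change was 0.75. Without replicate 1, 2 of them rose and 1 fell, and under median scaling 1 rose, where 1.96% of all genes did. *Cxcl1*, which attracts neutrophils, was at 113, 657 and 549 at 0 h and 24633, 3035 and 1809.7 at 4 h. Its log2 change was 7.77, 2.21 and 1.72 on the BeadChips of replicates 1, 2 and 3, and the fit put it at 3.90 (SE 1.19, adjusted p = 0.0856), with an adjusted p = 0.0450 without replicate 1. *Cxcl2*, its close relative, was at 103, 508 and 349 and 14005, 2363 and 1328 and stood at 3.75 (adjusted p = 0.0592), or an adjusted p = 0.00893 without replicate 1. For both the groups did not overlap. *Ccl3*, which attracts monocytes, was at 1779, 23596 and 19769 and 33053, 33742 and 26479, and *Ccl5* at 7192, 23929.5 and 34926 and 23929.5, 30171 and 39775. Their log2 fold changes were 1.72 (adjusted p = 0.177) and 0.75 (adjusted p = 0.228). On the BeadChips of replicates 1, 2 and 3 the median log2 change of the list was 2.26, 0.06 and -0.05.

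**Figure D3:**
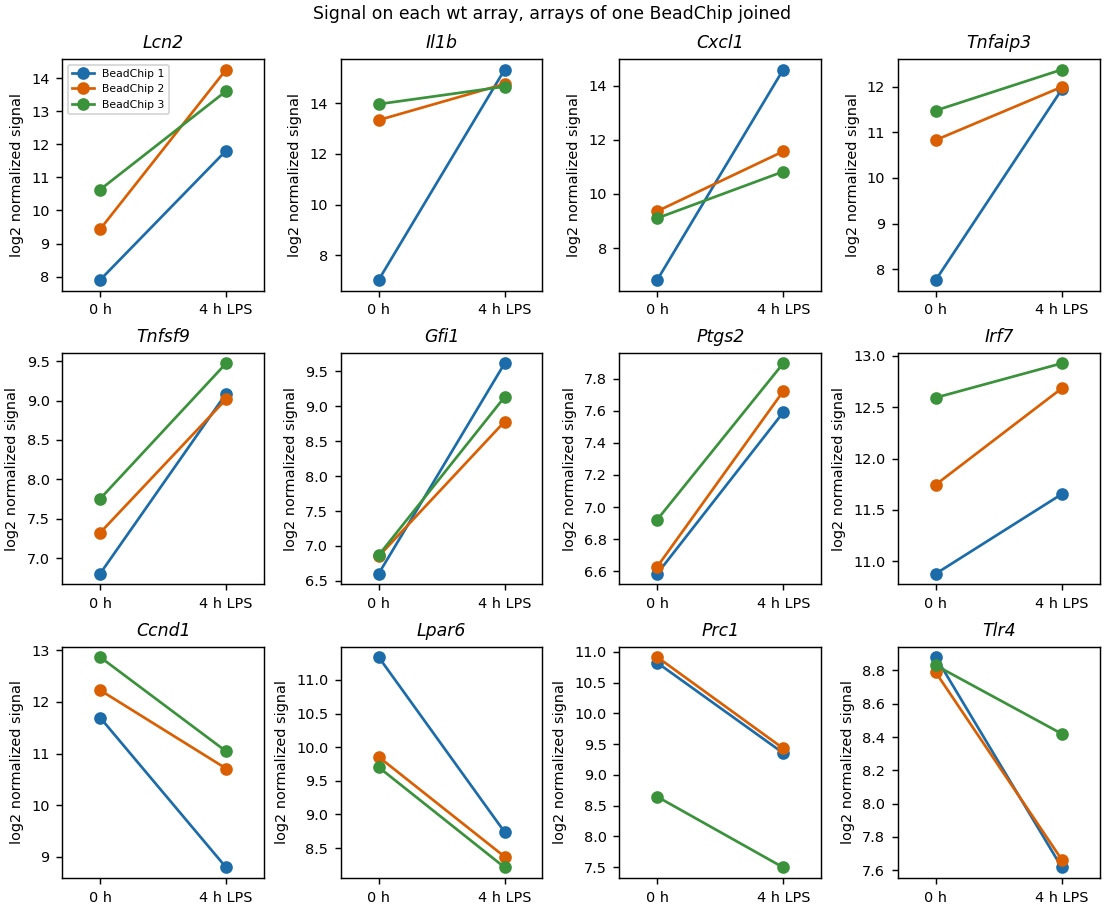
Each panel gives the log2 normalized signal (y axis) of 1 gene on the 6 wt arrays at 0 h and 4 h of LPS (x axis), with the arrays of 1 BeadChip joined. *Ptgs2* moved by similar amounts on the 3 BeadChips, *Tnfsf9* and *Gfi1* rose from low levels on all 3, *Il1b* and *Tnfaip3* started high in replicates 2 and 3, and *Prc1* started low in replicate 3 (400.3 against 1812 and 1931) and fell on all 3.

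Genes of NF-κB subunits, of IκBα and of inhibitors of the pathway were among those that rose. Of 9 measured NF-κB family and IκB genes 3 rose (33.3%, against 2.72% of all genes), none fell, and the median log2 fold change was 1.22. The number that rose was 3, 0 and 1 without replicate 1, 2 or 3. *Nfkbia*, the gene of IκBα, which retains NF-κB in the cytoplasm, was at 1459, 4046 and 7390.2 at 0 h and 10910.1, 11629.7 and 13259 at 4 h. Its 4 h arrays lay close together and above all 0 h arrays, which were spread out, and it rose by 1.76 (adjusted p = 0.0463) on the log2 scale. *Nfkb2*, which encodes p100, was at 141, 311 and 587 and 519, 734 and 1060.1 and rose on every BeadChip, by 1.32 (adjusted p = 0.0156) on the log2 scale, although its groups overlap. *Relb*, its dimer partner, rose by 1.11 (adjusted p = 0.0303). *Rela*, which encodes p65, stood at 0.52 (adjusted p = 0.0592). Of 15 feedback inhibitors of TLR and NF-κB signaling 6 rose (40%, against 2.72% of all genes) and none fell, and their median was 1.47. *Irak3*, an inactive kinase that blocks IRAK signaling, was at 960.1, 1149 and 1016 and 4338, 2169 and 2772. Its 0 h arrays were nearly equal, and it had a log2 fold change of 1.51 (SE 0.215, adjusted p = 0.00977). *Tnip1*, which binds A20, was at 2103, 4941 and 3599 and 11289, 9700.3 and 7192, a log2 fold change of 1.47 (adjusted p = 0.0159). *Zc3h12a*, the gene of the RNase regnase-1 that degrades cytokine mRNA, was at 306, 537 and 863 and 1485, 1209 and 1648, a log2 fold change of 1.46 (adjusted p = 0.0215). For both, every 4 h array exceeded every 0 h array. The MAP kinase phosphatase genes *Dusp16* and *Dusp2* rose by 2.12 (adjusted p = 0.0173) and 2.85 (adjusted p = 0.0485). *Dusp1*, named after its values were seen as it completes the 6, rose by 1.16 (adjusted p = 0.0402). *Tnfaip3*, which encodes A20, was at 217, 1825 and 2859 and 3939, 4093 and 5329.9. Its groups did not overlap, and it stood at 2.08 (SE 0.578, adjusted p = 0.0658), with an adjusted p = 0.00658 without replicate 1. The count of 6 was 5 without replicate 1 and 0 without replicate 2 or 3.

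The promoters below are shown because a pattern close to the NF-κB consensus lies in them. The stretches are the 250 bases before the start of the gene in RefSeq, build GRCm38.p6, 5′ to 3′ on the gene's strand, and capitals mark GGGNNTTNCC on either strand. *Nfkbia* lies at chr12:55492648-55492897 (minus strand), *Tnip1* at chr11:54962941-54963190 (minus strand), *Tnfaip3* at chr10:19015411-19015660 (minus strand) and *Cxcl1* at chr5:90890995-90891244 (plus strand).
Nfkbia: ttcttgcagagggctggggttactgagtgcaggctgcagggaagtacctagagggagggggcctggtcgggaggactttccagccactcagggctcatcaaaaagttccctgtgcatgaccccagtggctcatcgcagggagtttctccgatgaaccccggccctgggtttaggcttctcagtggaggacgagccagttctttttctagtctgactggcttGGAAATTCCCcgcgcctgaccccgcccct
Tnip1: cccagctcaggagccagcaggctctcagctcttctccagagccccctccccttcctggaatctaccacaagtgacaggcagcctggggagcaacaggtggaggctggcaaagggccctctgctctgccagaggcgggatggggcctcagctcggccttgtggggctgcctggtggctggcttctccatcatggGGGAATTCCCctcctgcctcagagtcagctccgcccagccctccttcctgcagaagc
Tnfaip3: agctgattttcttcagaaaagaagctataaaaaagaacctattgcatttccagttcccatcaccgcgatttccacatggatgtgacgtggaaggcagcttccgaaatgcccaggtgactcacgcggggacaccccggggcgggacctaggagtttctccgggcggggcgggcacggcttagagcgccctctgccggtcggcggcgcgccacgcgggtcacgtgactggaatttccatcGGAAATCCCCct
Cxcl1: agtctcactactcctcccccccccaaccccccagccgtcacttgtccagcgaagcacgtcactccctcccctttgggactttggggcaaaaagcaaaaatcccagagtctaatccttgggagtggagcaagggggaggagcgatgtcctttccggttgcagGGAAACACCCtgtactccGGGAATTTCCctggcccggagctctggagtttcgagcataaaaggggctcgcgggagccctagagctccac
The marked stretch of *Tnip1* matches on both strands, and *Cxcl1* holds 2 matches. These letters were found in 398 of the 7032 tested genes with a promoter in the table (5.66%) and in 4.11% of all 32851 promoters. They were found in 5 of 11 chemokine genes (45.5%), 3 of 7 NF-κB family and IκB genes (42.9%), 4 of 12 cytokine genes (33.3%) and 3 of 15 feedback inhibitors (20%). Over the risen genes the share was 6.25% (12 of 192) and over the fallen genes 6.02% (15 of 249), both near that of all tested genes. A match is a description of the letters and does not show binding.

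Of the receptor pathway itself 2 of 17 genes rose (11.8%, against 2.72% of all genes) and 1 fell (5.88%, against 3.69% of all genes). Under median scaling 1 rose and 1 fell, against 1.96% and 14.7% of all genes. *Tlr4*, the LPS receptor, was at 471, 442 and 455 at 0 h and 196, 203 and 342 at 4 h. The 0 h arrays were nearly equal, every 4 h array lay below them, and the fit gave a log2 fold change of -0.93 (SE 0.195, adjusted p = 0.0288), 1.91-fold lower. *Ikbkb*, the gene of IKKβ, rose by 0.78 (adjusted p = 0.0266) and *Tirap*, an adaptor of TLR4, by 0.45 (adjusted p = 0.0335). The LPS co-receptor gene *Cd14* stood at 0.66 (adjusted p = 0.217). None of 13 other Toll-like and pattern recognition receptor genes passed, where 6.41% of all genes did. *Tlr13*, a sensor of bacterial ribosomal RNA, had the smallest p of that list and stood at -1.25 (adjusted p = 0.0603), lower on all 3 BeadChips. Among AP-1 and immediate-early genes *Junb* rose by 1.13 (adjusted p = 0.0495) and *Fos* fell. *Fos* was at 5094, 2543 and 2875 and 2485, 655 and 1052, without overlap, a log2 fold change of -1.48 (adjusted p = 0.0319), and *Jun* stood at -0.73 (adjusted p = 0.0979). Of 4 measured C/EBP genes none passed, against 6.41% of all genes. *Cebpb*, a factor of acute-phase and cytokine genes, was at 7309.5, 10910.1 and 14661 and 19614, 17954 and 21118, and thus higher on every 4 h array, and stood at 0.89 (adjusted p = 0.107), with an adjusted p = 0.0340 without replicate 1.

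Genes of enzymes that make prostaglandin E2 and nitric oxide rose. *Ptges*, the prostaglandin E synthase, was at 119, 172 and 548 at 0 h and 3618, 1269 and 2641 at 4 h. Its groups did not overlap, and it had a log2 fold change of 3.36 (adjusted p = 0.00721). *Ptgs2*, which encodes COX-2, was dim throughout, at 96.0, 98.9 and 121 and 193, 211 and 238, and rose by similar amounts on each BeadChip, by 1.02 (adjusted p = 0.0107). *Alox5ap*, which presents arachidonic acid to 5-lipoxygenase, fell by a log2 value of 0.65 (adjusted p = 0.0266 from limma). Of 12 genes of prostaglandin and leukotriene synthesis and reception these were the 3 that passed. The shares were 16.7% risen, against 2.72% of all genes, and 8.33% fallen, against 3.69% of all genes. *Nos2*, the inducible nitric oxide synthase, was at 90.8, 733 and 948 and 416, 3174 and 2305. Replicate 1 ended below the starting level of replicates 2 and 3, so the groups overlap, but it rose on every BeadChip, by 1.86 (adjusted p = 0.0251). *Slc7a2*, the arginine transporter that supplies it, went from 117, 276 and 458 to 1872, 836 and 1133, a log2 fold change of 2.30 (adjusted p = 0.0243). *Arg2* at 0.99 (adjusted p = 0.0580) and *Sod2* at 0.91 (adjusted p = 0.121) did not pass. Altogether 2 of 11 genes of this group rose (18.2%, against 2.72% of all genes) and none fell.

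None of 26 interferon-stimulated genes passed, where 6.41% of all genes did. Their median log2 fold change was 0.75, with 1.92, 0.08 and -0.02 on the BeadChips of replicates 1, 2 and 3. *Irf7*, the factor that amplifies interferon production, was at 1885, 3436 and 6177 at 0 h and 3223, 6578 and 7786 at 4 h. It was higher at 4 h on every BeadChip and its groups overlap, with a log2 fold change of 0.68 (adjusted p = 0.115). *Zbp1*, a nucleic acid sensor, stood at 0.66 (adjusted p = 0.0608), *Stat2*, which carries the interferon signal to the nucleus, at 0.78 (adjusted p = 0.105) and *Isg20*, an exonuclease, at 1.14 (adjusted p = 0.107). The interferon response element GAAANNGAAA was found in the 250 bases before the start of 11 of 21 of these genes (52.4%) against 3.7% of tested genes. Of 22 costimulatory and antigen presentation genes only the immunoproteasome subunit gene *Psmb8* rose (4.55%, near the 2.72% of all genes), by 0.71 (adjusted p = 0.0288). *Tap1*, the peptide transporter, stood at 1.06 (adjusted p = 0.0506). *Cd40*, named after its values were seen, was at 283, 28784 and 29655 and 24889, 39775 and 36851, and its log2 change on the 3 BeadChips was 6.46, 0.47 and 0.31. The fit gave 2.41 (adjusted p = 0.260).

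**Figure D4:**
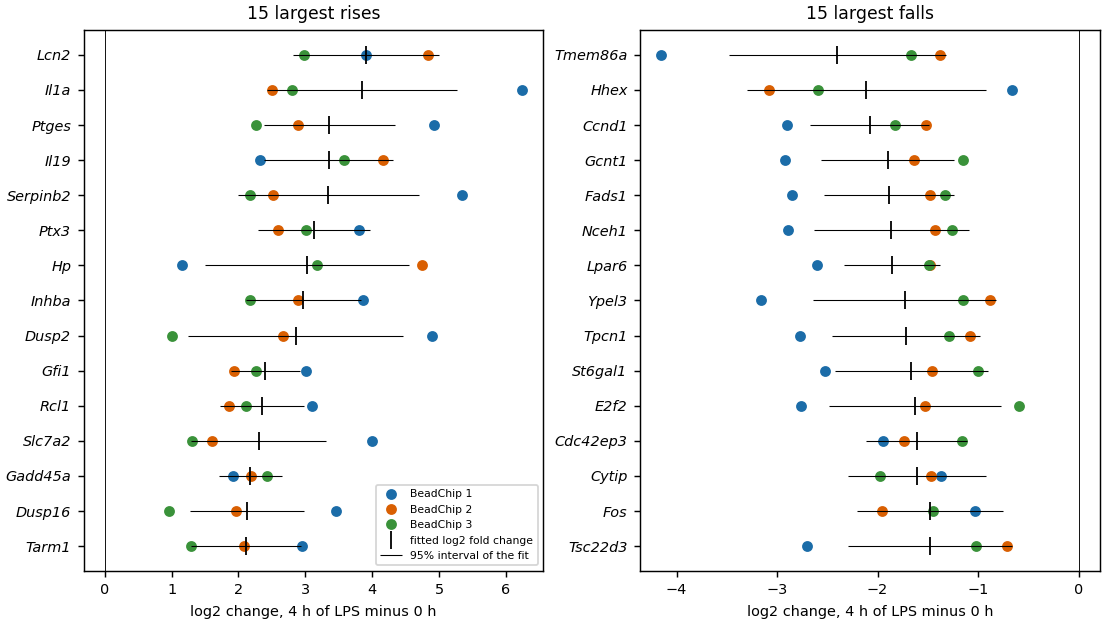
Points give the log2 change, 4 h of LPS minus 0 h (x axis), on each BeadChip for the 15 genes that rose most and the 15 that fell most among those that passed. The tick is the fitted log2 fold change and the line its 95% interval. By that choice all points of the left panel lie above 0 and all of the right panel under 0. The points of BeadChip 1 (blue) are often the farthest out, as in *Il1a* and *Tmem86a*.

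Several further genes were among the 15 that rose most or were picked out by the study. *Serpinb2*, which encodes the plasminogen activator inhibitor PAI-2, was at 85.2, 131 and 361 at 0 h and 3450.2, 749.9 and 1629.8 at 4 h, without overlap, and rose by 3.34 (adjusted p = 0.0180) on the log2 scale. *Gfi1*, a transcriptional repressor of myeloid cells, was at 97.2, 115 and 117 and 784, 440.0 and 562, and rose by 2.40 (adjusted p = 0.00350). *Gadd45a*, a growth arrest and DNA damage gene, was at 256, 239 and 339.6 and 964, 1091 and 1825. It rose by 2.18 (adjusted p = 0.00350), and like *Gfi1* it was higher on every 4 h array than on any 0 h array. *Rcl1*, which takes part in ribosomal RNA processing, was at 477, 1079 and 1397 at 0 h and 4084, 3893 and 6009 at 4 h. The groups did not overlap, and it had a log2 fold change of 2.35 (SE 0.279, adjusted p = 0.00586). *Tarm1*, an activating receptor of myeloid cells that interacts with T cells, rose by 2.11 (adjusted p = 0.0157), with overlapping groups. *Klf7*, a Krüppel-like transcription factor, rose by 2.07 (adjusted p = 0.0266). *Mapkbp1*, a MAP kinase-binding protein, was at 154, 378 and 402 and 995, 1037 and 988. Its 4 h arrays were nearly equal and above all 0 h arrays, and it rose by 1.81 (adjusted p = 0.00728). *Mmp14*, a membrane-anchored matrix metalloproteinase, rose by 1.43 (adjusted p = 0.0137) and the endosomal adaptor gene *Appl1* by 1.52 (adjusted p = 0.0153). *Fpr2*, a formyl peptide receptor, rose by 1.42 (adjusted p = 0.0156). *Ddit4*, an inhibitor of mTORC1, was at 89.3, 96.5 and 141 and 311, 282 and 394, and rose by 1.61 (adjusted p = 0.00728). Of 20 NRF2, p53 and amino acid stress genes *Ddit4* and *Gadd45a* were the 2 that rose (10%, against 2.72% of all genes), and none fell. *Edn1*, the endothelin-1 gene, was at 91.6, 2081 and 2223 and 5028, 9069 and 5094, without overlap, and stood at 3.03 (adjusted p = 0.0599), while *Tnfrsf1b*, the TNF receptor 2 gene, stood at 1.48 (adjusted p = 0.0519) and *Fcgr2b*, the inhibitory Fc receptor gene, at 1.89 (adjusted p = 0.0794). *Hdc*, which makes histamine and was listed as a mast cell marker, was at 108, 4661 and 5449 and 4852, 12118 and 8766. The other 6 mast cell and basophil markers on the array were not detected often enough to be tested, and *Hdc* stood at 2.52 (adjusted p = 0.127).

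Some genes with small p-values are named here after their values were seen, and of all tested genes *Samsn1* had the smallest. *Samsn1*, an adaptor that restrains B cell activation, was at 832, 1818 and 1456 at 0 h and 2871, 5818 and 5289 at 4 h. The groups did not overlap, its log2 change on the BeadChips of replicates 1, 2 and 3 was 1.79, 1.68 and 1.86, and it had a log2 fold change of 1.78 (SE 0.114, adjusted p = 0.000722). *Batf*, an AP-1 factor, was at 114, 275 and 504 and 396, 1050.4 and 2312. Its log2 change was 1.80, 1.93 and 2.20 on the 3 BeadChips, but from different 0 h levels, so that its groups overlap, and it stood at 1.98 (adjusted p = 0.00252) with BeadChips as a block, against an adjusted p = 0.674 without it. *Kmt5a*, a histone H4 methyltransferase, rose by 1.06 (adjusted p = 0.00252). Among the falls *Cd180*, a TLR4 homolog, was at 2772, 4009.9 and 2417 and 1563, 2069.7 and 1114 and fell by 0.97 on the log2 scale (adjusted p = 0.00582), and *Mef2c*, a transcription factor of myeloid and muscle cells, fell by 0.997 (adjusted p = 0.00638). Both had groups without overlap.

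Among the 15 genes that fell most were those of enzymes of lipid and glycan metabolism and of cell cycle regulators. *Tmem86a*, which breaks down lysoplasmalogens, was at 4123, 467 and 856 at 0 h and 232, 179.7 and 269.6 at 4 h. The 3 arrays at 4 h lay together below those at 0 h, of which replicate 1 was by far the highest, and the fit gave a log2 fold change of -2.40 (SE 0.476, adjusted p = 0.0257). *Nceh1*, a cholesterol ester hydrolase of macrophages, was at 13052, 5573 and 1999 and 1760.0, 2063 and 833, lower on each BeadChip with overlapping groups, at -1.86 (adjusted p = 0.0203). *Fads1*, a fatty acid desaturase, was at 5949.8, 4154 and 1184 and 824, 1495 and 472, at -1.89 (adjusted p = 0.0130). Its groups also overlap, because replicate 3 started low. *Lpar6*, a receptor of lysophosphatidic acid, was at 2591, 927 and 833 and 427, 331 and 297. All 4 h arrays lay below all 0 h arrays, and it had a log2 fold change of -1.86 (SE 0.210, adjusted p = 0.00582). *Gcnt1* and *St6gal1*, which branch and sialylate glycans, stood at -1.90 (adjusted p = 0.0131) and -1.66 (adjusted p = 0.0267), and *Tpcn1*, an endolysosomal cation channel, at -1.72 (adjusted p = 0.0225). *Ccnd1*, the gene of cyclin D1, was at 3319, 4791 and 7469.8 and 444, 1675 and 2109, without overlap, and fell by 2.08 on the log2 scale (adjusted p = 0.00667), 4.23-fold. *E2f2*, an S phase transcription factor, stood at -1.63 (adjusted p = 0.0394) and was detected on 1 of 3 arrays at 4 h. The homeobox gene *Hhex* at -2.11 (adjusted p = 0.0485), *Ypel3* at -1.73 (adjusted p = 0.0395), *Cytip* at -1.61 (adjusted p = 0.0219), which encodes a regulator of leukocyte adhesion, and *Tsc22d3* at -1.48 (adjusted p = 0.0464), the glucocorticoid-induced leucine zipper, make up the rest with *Fos* and *Cdc42ep3*. The fractalkine receptor gene *Cx3cr1* fell by 1.11 (adjusted p = 0.0347), and the mannose receptor gene *Mrc1* stood at -1.02 (adjusted p = 0.105).

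Some mitosis and DNA replication genes fell, and none on these lists rose. Of 21 mitosis genes 8 fell (38.1%, against 3.69% of all genes), with a median log2 fold change of -0.71. *Prc1*, which bundles the spindle midzone, was at 1812, 1931 and 400.3 at 0 h and 654, 689.9 and 180.5 at 4 h. Its log2 change was -1.47, -1.48 and -1.15 on the BeadChips of replicates 1, 2 and 3, and the groups overlap because replicate 3 started below the level where the others ended. Its log2 fold change was -1.37 (adjusted p = 0.00879) with the block and its adjusted p 0.794 without. *Cenpa*, the centromeric histone, was at 2839.7, 4218 and 1302 and 901, 1922 and 597, at -1.31 (adjusted p = 0.0141). *Plk1*, the polo kinase, was at 490.0, 549.6 and 168 and 261, 237 and 106, at -0.93 (adjusted p = 0.0134), and *Birc5*, which encodes survivin, stood at -1.001 (adjusted p = 0.0141). Completing the 8, named for that reason, are *Kif23*, *Cdca3*, *Nusap1* and *Cdk1*, between -1.13 and -0.71. Of 35 DNA replication genes 5 fell (14.3%, against 3.69% of all genes), and the median was -0.46. On all 3 BeadChips 27 were lower, against 26.2% of all genes, and none was higher. *Mcm4*, a subunit of the replicative helicase, was named after its values were seen, as it completes the 5. It was at 2977, 2859 and 704 and 874, 1022 and 526, at -1.22 (adjusted p = 0.0452). *Chaf1b*, a histone chaperone of replication, stood at -0.85 (adjusted p = 0.0275) and *Pold1*, the catalytic subunit of DNA polymerase δ, at -0.85 (adjusted p = 0.0439). The other 2 were *Pcna* and *Mcm6*. Without replicate 1, 2 or 3 the number of mitosis genes that fell was 4, 0 and 2 and that of replication genes 2, 0 and 1. Under median scaling, where the median of all genes lay lower and 14.7% of them fell, 13 of 21 mitosis and 17 of 35 replication genes fell.

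The promoters of *Cdk1* and *Plk1* are shown for the CCAAT box, which is known from cell cycle promoters. As above they are the 250 bases before the RefSeq start in GRCm38.p6 on the gene's strand, at chr10:69352913-69353162 (minus strand) and chr7:122159185-122159434 (plus strand), with CCAAT on either strand in capitals.
Cdk1: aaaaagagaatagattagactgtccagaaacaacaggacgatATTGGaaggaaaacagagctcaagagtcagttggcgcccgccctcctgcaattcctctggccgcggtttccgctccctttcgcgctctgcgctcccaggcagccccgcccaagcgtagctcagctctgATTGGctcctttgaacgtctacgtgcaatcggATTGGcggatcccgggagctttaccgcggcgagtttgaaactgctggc
Plk1: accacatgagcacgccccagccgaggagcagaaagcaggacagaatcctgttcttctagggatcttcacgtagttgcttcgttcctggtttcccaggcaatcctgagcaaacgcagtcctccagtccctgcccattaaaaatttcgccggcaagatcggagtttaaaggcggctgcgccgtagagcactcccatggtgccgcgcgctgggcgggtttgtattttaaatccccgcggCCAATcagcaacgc
*Cdk1* holds 3 matches and *Plk1* 1. CCAAT was found in 15 of 18 mitosis genes with a promoter in the table (83.3%) and 18 of 30 replication genes (60%), against 41.1% of tested genes and 33.8% of all promoters. The CHR element TTTGAA, another cell cycle element, was found in 8 of 18 mitosis genes (44.4%) against 13.2% of tested genes, and the E2F motif TTTNNCGC in 6 of 30 replication genes (20%) against 8.33%. CHR was found in 5 of 30 replication genes (16.7%) and the E2F motif in 1 of 18 mitosis genes (5.56%). Over all 249 fallen genes with a promoter the share with CCAAT was 44.6% and over the 192 risen genes 38.5%. For CHR these shares were 12.9% and 16.1% and for the E2F motif 8.43% and 4.17%.

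Genes of cholesterol and fatty acid synthesis fell or did not pass. Of 22 measured, 5 fell (22.7%, against 3.69% of all genes) and none rose (median -0.30). The number that fell was 8 under median scaling, where 14.7% of all genes fell, and 4, 0 and 0 without replicate 1, 2 or 3. Beside *Fads1* these were *Acly*, which makes cytosolic acetyl-CoA, at -0.49 (adjusted p = 0.0156), *Acaca*, which makes malonyl-CoA, at -0.43 (adjusted p = 0.0299), and the sterol pathway genes *Ebp* at -0.41 (adjusted p = 0.0335) and *Msmo1* at -0.91. *Msmo1* was named after its values were seen, as it completes the 5. *Acly* was at 5716, 4495 and 2344 at 0 h and 3886, 3289 and 1693 at 4 h, a small and even fall on each BeadChip from different starting levels. Of 7 LXR and cholesterol export genes none passed (6.41% of all genes did), with *Abcg1*, a cholesterol exporter, at -1.04 (adjusted p = 0.112). Among 25 lysosome and V-ATPase genes *Lipa*, the lysosomal acid lipase, fell by 1.02 (adjusted p = 0.0394) and *Gusb*, the β-glucuronidase, by 0.78 (adjusted p = 0.0255). They were the only members that fell (8%, against 3.69% of all genes). In glycolysis *Pfkl*, the phosphofructokinase of liver type, rose by 0.82 (adjusted p = 0.0226), and the glucose transporter gene *Slc2a1* was at 858, 1190.2 and 2151 and 3292, 2254 and 3893, higher on every 4 h array, at 1.24 (adjusted p = 0.0521). *Idh2* and *Ndufa4* were the 2 of 31 mitochondrial genes that fell (6.45%, against 3.69% of all genes), by 0.47 (adjusted p = 0.0342) and 0.45 (adjusted p = 0.0480). Under median scaling 8 of the 31 fell, where 14.7% of all genes did. Of 23 ribosomal protein genes only *Rps27* fell (4.35%, near the 3.69% of all genes), by 0.42 (adjusted p = 0.0431). On all 3 BeadChips 15 were lower, against 26.2% of all genes. The list medians were -0.26 for lysosome, -0.16 for mitochondrial and -0.23 for ribosomal protein genes, and under median scaling -0.39, -0.33 and -0.20, where the median of all genes was -0.17.

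Among other groups the ER stress gene *Herpud1* rose by 0.77 (adjusted p = 0.0480). It was the 1 of 16 chaperone and ER genes that passed (6.25%, against 2.72% of all genes). The myeloid factor gene *Spi1*, which encodes PU.1, rose by 0.69 (adjusted p = 0.0377), the 1 of 11 macrophage markers that passed (9.09%, against 2.72% of all genes). Under median scaling, where 1.96% of all genes rose, no chaperone and ER gene and no macrophage marker rose. *Mertk*, a receptor for apoptotic cells, stood at -0.78 (adjusted p = 0.177). None of 16 survival and death regulators and none of 18 phagocytic, scavenger and Fc receptor genes passed. Over all genes 6.41% passed, so in lists this short none is close to that share.

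**Figure D5:**
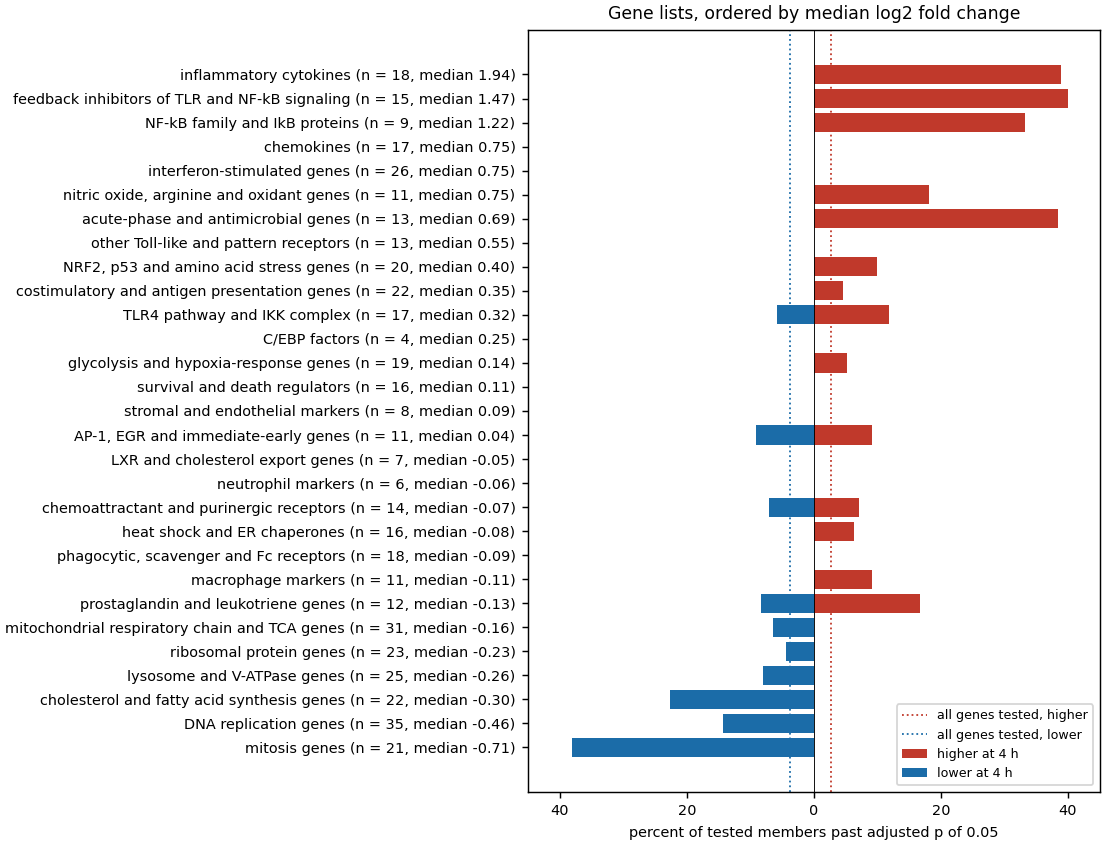
Bars give the percent of the tested members of each gene list that rose (red, to the right) or fell (blue, to the left) at an adjusted p under 0.05, with lists ordered by their median log2 fold change. Dotted lines mark the shares over all 8569 genes, 2.72% and 3.69%. Cytokines (median 1.94), feedback inhibitors (1.47) and NF-κB family genes (1.22) stand at the top and mitosis genes (-0.71) at the bottom, and chemokines and interferon-stimulated genes have no bar.

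The response was set beside that of IKKβ-deficient BMDMs on the same BeadChips. No gene passed the test of the difference between the genotypes in their change with LPS (240 of 8569 at an unadjusted p under 0.05 by limma). Of the 233 genes that rose in wt BMDMs 230 had the same sign in IKKβ-deficient BMDMs and of the 316 that fell 308 had, against 6524 of all 8569 genes. These arrays share BeadChips and the fit's spread with the wt arrays. *Ptx3* had the largest difference of the genes that rose most, at 1.23 on the log2 scale in favor of wt (SE 0.522, adjusted p = 0.9998), and *Il1a* stood at 0.01. The DMSO control of the p38 experiment is an LPS response in other arrays, normalized by the authors apart from these. There 226 of the 233 risen genes (97%) were higher and 306 of the 316 fallen genes (96.8%) lower at 4 h, while of all 8569 genes 44.7% were higher and 55.3% lower. The condition labels of both deposited column sets conflict in that experiment. With the intensities deposited before normalization, read with the labels of their own columns (chosen after seeing the data), the numbers were 223 of 233 (95.7%) and 305 of 316 (96.5%), against 45.9% and 54.1% of all genes.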

How the data were processed

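RNA of 12 samples of the IKKβ experiment was read on Illumina MouseRef-8 v2 arrays. The authors deposited BeadStudio intensity values without normalization, with a detection p-value per probe, and intensity values quantile-normalized in Partek (version not given in the sources used here). Here the deposited intensities were quantile-normalized over the 12 arrays and put on the log2 scale. These differ from the authors' normalized values by at most 0.000736 on that scale. No background was subtracted. The columns deposited with the paper's own comparisons were not used, and 0 columns of per-sample values were left out. Gene names of probes came from the platform's annotation (23978 with 1 gene symbol, 0 with several, 1719 with none), and gene numbers of 23962 were found in the RefSeq table, which updated 0 symbols. A probe passed with a detection p under 0.05 on at least 3 of the 12 arrays (12376 probes, 715 of them unnamed), and the brightest stood for each of 2210 genes with several. The test was limma 3.58.1 (R 4.3.3), 4 group means with the BeadChip as a block, 2-sided, with empirical Bayes (6 residual and 2.97 prior degrees of freedom) and Benjamini-Hochberg adjustment over 8569 genes at 0.05. By the labels a BeadChip held the 4 arrays of a replicate number, and deviations from group means of the 18 same-numbered pairs correlated at 0.42 to 0.93. The fit was tested on simulated data in which the noise of each array was independent. The number of arrays limits the precision. Promoters came from RefSeq (GRCm38.p6), and a gene counts as a match if any of its promoters matches. Figures used Python 3.11.15, pandas 2.3.3 and matplotlib 3.10.9. Named genes were taken from the 15 largest rises and falls past the threshold that moved one way on all 3 BeadChips, up to 4 members of each of 35 gene lists with the smallest p, and genes the study names. Exceptions are said to be such. The arrays, lists and rules were chosen with earlier results of these data known. Alternatives covered the block, the arrays fitted, normalization, background, probe filter, spread model, the methods' t-test and each replicate and array left out.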

Additional observations from a re-analysis of the deposited data

Results flagged for a closer look

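*Clec4d*, a C-type lectin receptor of myeloid cells, was lower after LPS on all 3 BeadChips in wt BMDMs and higher on all 3 in IKKβ-deficient BMDMs. Its log2 fold change was -0.28 in wt and 0.18 in IKKβ-deficient BMDMs, a difference of -0.46 (standard error 0.1504). That difference had an adjusted p of 0.9998 by limma (0.0140 unadjusted), so it did not pass the test over all genes.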

How the results depend on the processing

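The number of genes changed by LPS in wt BMDMs, 549, was 4 without the replicate block, 298 with the BeadChip as a random replicate block (293 shared with the 549), 0 with the 6 wt arrays alone with or without the block, and 1427 under median scaling (462 shared). It was 0 with median scaling and the 6 wt arrays with the block, an alternative chosen after seeing the data. By the methods' t-test (p of 0.05 or less, fold of at least 2.5) it was 46, and 0 after Benjamini-Hochberg. Leaving out one whole replicate gave 0 to 541 and one single wt array 91 (without replicate 2 at 4 h) to 443 (without replicate 3 at 4 h). The authors' normalized values (549), normexp background (472), no filter (437), detection on 3 of the 6 wt arrays (571), every probe (585) and a spread with a trend (528) gave similar numbers. The test of the difference between the genotypes passed 0 genes under each alternative run on it. Of 151 named genes, 72 lost their call without the block and 74 in the 6 arrays alone. Under median scaling 6 lost and 19 gained a call, and no named gene that passed turned its direction. The fits of 6 arrays have fewer residual degrees of freedom, and other causes were not tested. Dim probes limit folds near background, and very bright ones, such as those of *Cxcl10* and *Cd40* in replicates 2 and 3, may limit them at the top.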
